A study of Homo sapiens with 6 samples.

Results

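The annexins are a family of proteins that bind acidic membrane phospholipids in the presence of calcium. Their transcripts were followed in OSC19SSZR cells after knockdown of FOXA1. The 10 members were taken by gene symbol from the deposited table of normalized counts: ANXA1 to ANXA9 and ANXA11, out of 61859 genes listed. The family was selected on its fold changes in the comparison described here, in which ANXA3 and ANXA1 stood among the largest rises. Each of the 10 symbols stood on a single row, so no choice between rows was needed. Of these, 9 had reads and passed the filter on low values (10 normalized counts on average over the 6 libraries), and ANXA6 had none. ANXA8L1, ANXA10 and ANXA13, further annexin genes of the table, are not members and are given as values further on.

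OSC19SSZR cells are a sulfasalazine-resistant line from oral squamous cell carcinoma. Sulfasalazine inhibits xCT, the transporter that brings cystine into the cell. All 6 libraries come from this line, so every one of them carries that resistance, and sulfasalazine treatment is not named among the labels. Cells received FOXA1 siRNA (n = 3) or control siRNA (n = 3) by lipid transfection, and total RNA was taken 48 h later. Neither the siRNA sequences nor separate cultures behind the replicates are given in the sources used here, so the spread that p-values are set against is that between libraries and may be technical. In bulk RNA of this kind, fewer cells of a type and less RNA per cell cannot be told apart. The normalized count is a gene's read count divided by the size factor of its library. The libraries held 16510125 to 25732569 reads.

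All annexins share a folded core of repeats that carries the calcium and phospholipid binding sites, and each has its own head region, through which partners such as S100 proteins bind. Through these contacts annexins organise membrane domains, take part in membrane traffic and fusion, help to seal torn plasma membranes and, outside the cell, act on coagulation and on leukocytes. In stratified squamous epithelium ANXA1, ANXA2 and ANXA8 are known as abundant members, and loss of ANXA1 has been described in head and neck squamous carcinoma.

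FOXA1, the targeted forkhead transcription factor, had 247, 192 and 189 normalized counts in FOXA1 siRNA replicates 1, 2 and 3, against 1477, 1378 and 1459 in control siRNA replicates 1, 2 and 3. The groups were well apart, and 14.5% of the control level was left. The exact permutation p of FOXA1 (two-sided) was 0.1, and 3 against 3 libraries allow no smaller one. Among 10 markers of squamous epithelium all were detected, with a summed level of 58764 to 61337 normalized counts with FOXA1 siRNA and 52778 to 55324 with control siRNA. Of these 10, 4 were higher, 3 lower and 3 did not pass. KRT17 was at 11743 and 5827 on average with FOXA1 siRNA and control siRNA, KRT5 at 27947 and 31639, TP63 at 3734 and 4917, and KRT14, the usual partner of KRT5, at only 47.6 and 30.0. KRT6A had 178, 72.1 and 64.0 in FOXA1 siRNA replicates 1, 2 and 3, against 50.4, 38.3 and 802 in control siRNA replicates 1, 2 and 3. Control siRNA replicate 3 thus stood apart for this gene, which the summed level does not show. Of the 6 fibroblast, 4 endothelial and 5 leukocyte markers, only COL1A1 and CDH5 passed the filter on low values, both lower with FOXA1 siRNA, and the fibroblast markers DCN and LUM were at 0 in all 6 libraries. Summed levels with FOXA1 siRNA and control siRNA were 92.5 to 137 and 148 to 165 for the fibroblast markers, 279 to 303 and 542 to 573 for the endothelial ones, and 2.14 to 7.59 and 9.41 to 12.4 for the leukocyte ones. Their part in the annexin values was not tested.

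Promoter sequences are shown for the annexins that rose most (ANXA3 and ANXA1) and for the one that fell most (ANXA9), since FOXA1 binds DNA and these are the members the results turn on. Each is the 250 bases before the RefSeq transcription start, 5′ to 3′ on the gene's strand, in GRCh38.p14. The GENCODE gene starts used further on lie earlier. They are at 78551519 for ANXA3 and 150982017 for ANXA9, before the whole window, and at 73151757 for ANXA1, within the window. By GENCODE these windows thus lie wholly (ANXA3, ANXA9) or partly (ANXA1) inside the gene. Capitals mark TGTTT, the core of forkhead recognition sites, read on either strand (AAACA on the strand shown), and TATAAA, the TATA box.
ANXA3, chr4:78551520-78551769, plus strand: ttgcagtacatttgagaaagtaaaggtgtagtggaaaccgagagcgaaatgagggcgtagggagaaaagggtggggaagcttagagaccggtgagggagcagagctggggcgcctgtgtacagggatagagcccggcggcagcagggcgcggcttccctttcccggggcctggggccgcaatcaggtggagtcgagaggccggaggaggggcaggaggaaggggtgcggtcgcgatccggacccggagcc
ANXA1, chr9:73151615-73151864, plus strand: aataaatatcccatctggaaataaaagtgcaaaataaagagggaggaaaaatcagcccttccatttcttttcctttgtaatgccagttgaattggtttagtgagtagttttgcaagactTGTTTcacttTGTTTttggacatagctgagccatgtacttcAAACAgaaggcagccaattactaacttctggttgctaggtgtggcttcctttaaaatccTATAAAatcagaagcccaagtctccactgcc
ANXA9, chr1:150982042-150982291, plus strand: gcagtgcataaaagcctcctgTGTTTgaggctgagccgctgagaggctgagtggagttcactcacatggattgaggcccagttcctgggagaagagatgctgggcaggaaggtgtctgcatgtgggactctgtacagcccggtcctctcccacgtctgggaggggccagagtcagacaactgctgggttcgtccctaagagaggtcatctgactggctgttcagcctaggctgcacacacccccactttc

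The promoters of ANXA3 and ANXA1, the members with the largest rises, differed in make-up. Over the 300-base window that reaches 50 bases past the start, ANXA3 was 64.7% G and C with 25 CpG sites, and ANXA1 was 37.7% G and C with 0 CpG sites. The median over 34943 promoters of the same length was 58.7%. ANXA1 held 3 matches to TGTTT and a TATAAA box at bases -31 to -26, and ANXA3 held none of the searched motifs. TGTTT also stood in the ANXA9 promoter (bases -229 to -225) and in an ANXA11 promoter (bases -84 to -80). TATAAA stood in another ANXA11 promoter (bases -61 to -56). Of all promoters, 44.5% held TGTTT and 11.6% TATAAA on either strand. These shares count any match, whatever the G and C content, in which ANXA1 stood at percentile 7.60 of all promoters. The longer forkhead motifs TGTTTAC and TGTTTGC, which contain that core and stand in 3.42% and 3.89% of all promoters, were in none of the 13 RefSeq promoters listed for 9 members. ANXA2 held a TATAAA box at the same place as ANXA1 and a match to the AP-1 motif TGANTCA, present in 7.72% of all promoters. A match describes the letters of these windows and is not evidence of binding.

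Of the 9 annexins with reads, 5 rose, 3 fell and 1 did not pass at an adjusted p of 0.05 in the limma fit across all genes. Over all 18460 tested genes, 51.8% were called in either direction, 26.8% higher and 25% lower with FOXA1 siRNA. That split depends on the scaling: 4954 genes were higher and 4617 lower as deposited, against 3594 higher and 5967 lower with equal library totals, under which 5 annexins were still higher and 3 lower. Since the family was chosen with this comparison in view, the annexin counts and fold changes are given as a description, without p-values, and nothing is read from their share. The median log2 fold change of the 9 was 0.25, the value of ANXA2, against 0.0039 over all tested genes. Most members stood at levels where other genes also had higher medians and more calls. The median was 0.11 with 69.5% called for genes with a mean of 1000 to 10000, and 0.27 with 80.4% called from 10000. It was 0.0051 with 56.6% called from 100 to 1000, the range of ANXA3 and ANXA9. For 8 of the 9 the FOXA1 siRNA libraries did not overlap the control siRNA libraries, as for 57.6% of all tested genes.

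**Figure D1:**
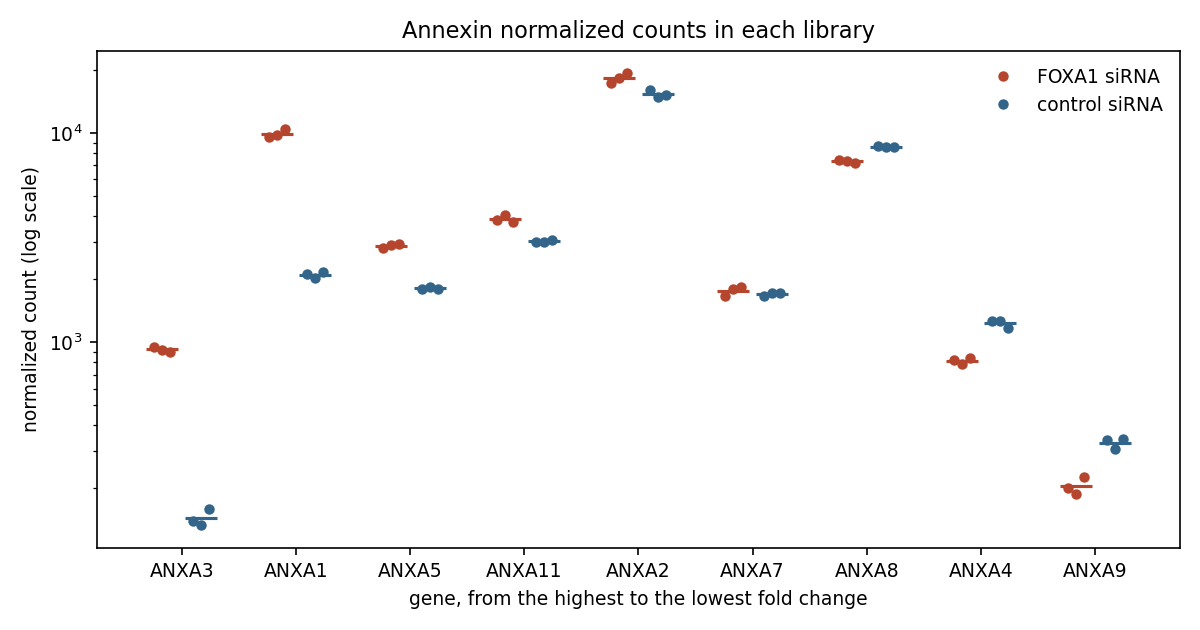
Normalized counts (log scale) of the 9 annexins with reads, as points for each library and bars for the mean, with the 3 FOXA1 siRNA libraries left of the 3 control siRNA libraries for each gene. The groups overlap for ANXA7 only, and the gaps of ANXA3 and ANXA1 are much wider than those of the other genes.

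ANXA3 (ENSG00000138772; GRCh38 chromosome 4, 78551519 to 78610451, plus strand), an annexin known from neutrophil granules and found raised in several carcinomas, was low in control cells and rose the most. It had 950, 920 and 899 normalized counts in FOXA1 siRNA replicates 1, 2 and 3, against 140, 133 and 159 in control siRNA replicates 1, 2 and 3. The lowest knockdown library was far above the highest control library. The means were 923 ± 25.5 and 144 ± 13.4 (SD, n = 3 each), a ratio of 6.41 and a log2 fold change of 2.68 ± 0.087 (SE), the third largest rise among the tested genes.

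ANXA1 (ENSG00000135046; GRCh38 chromosome 9, 73151757 to 73170393, plus strand), once called lipocortin, is induced by glucocorticoids, restrains cytosolic phospholipase A2 and signals through formyl peptide receptors. Its normalized counts were 9540, 9780 and 10467 in FOXA1 siRNA replicates 1, 2 and 3, against 2116, 2022 and 2167 in control siRNA replicates 1, 2 and 3. The gap between the groups was many times the spread within either. ANXA1 was already abundant in control cells, so its rise added far more transcript than that of ANXA3: 7827 normalized counts on average, against 779 for ANXA3. The means were 9929 ± 481 and 2102 ± 74.0 (SD, n = 3 each), a ratio of 4.72 and a log2 fold change of 2.24 ± 0.049 (SE). Only 17 genes, or 0.0921% of those tested, were called with a rise of at least 4-fold, and ANXA3 and ANXA1 are among them.

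ANXA5 (GRCh38 chromosome 4, 121667955 to 121697113, minus strand), which binds phosphatidylserine so tightly that it serves as the standard probe for dying cells, was the third annexin in size of rise. It had 2817, 2912 and 2959 normalized counts in FOXA1 siRNA replicates 1, 2 and 3, against 1797, 1841 and 1795 in control siRNA replicates 1, 2 and 3. The groups lay far apart, with a log2 fold change of 0.68 ± 0.050 (SE) and a ratio of 1.60.

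ANXA11 (GRCh38 chromosome 10, 80150889 to 80205572, minus strand), which tethers RNA granules to lysosomes and binds the calcium sensor PDCD6, rose less. Its normalized counts were 3847, 4048 and 3755 in FOXA1 siRNA replicates 1, 2 and 3, against 3027, 3023 and 3066 in control siRNA replicates 1, 2 and 3, a log2 fold change of 0.35 ± 0.048 (SE). The control libraries were closely alike, with a coefficient of variation of 0.777%, the lowest of any annexin in either group.

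ANXA2 (GRCh38 chromosome 15, 60347134 to 60402883, minus strand), which pairs with S100A10 at the inner face of the plasma membrane and at the cell surface gathers plasminogen and its activator, had the highest normalized counts of the family. It had 17366, 18264 and 19286 normalized counts in FOXA1 siRNA replicates 1, 2 and 3, against 16071, 14867 and 15255 in control siRNA replicates 1, 2 and 3. The groups did not overlap, but the change was small, with a log2 fold change of 0.25 ± 0.046 (SE). The median log2 fold change over all tested genes was larger at higher levels. It was 0.27 for the 219 genes with a mean of at least 10000, the range that holds ANXA2, and 0.11 for the 3944 genes from 1000 to 10000, the range of ANXA1, ANXA4, ANXA5, ANXA7, ANXA8 and ANXA11. With quantile normalization the log2 fold change of ANXA2 was 0.036 and no longer passed.

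ANXA7 (GRCh38 chromosome 10, 73375101 to 73414076, minus strand), also called synexin and known for promoting membrane fusion, did not pass. Its normalized counts were 1666, 1789 and 1827 in FOXA1 siRNA replicates 1, 2 and 3, against 1664, 1710 and 1708 in control siRNA replicates 1, 2 and 3. The groups overlapped, and the log2 fold change was 0.054 ± 0.054 (SE), with the opposite sign under equal library totals (-0.044) and quantile normalization (-0.017).

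**Figure D2:**
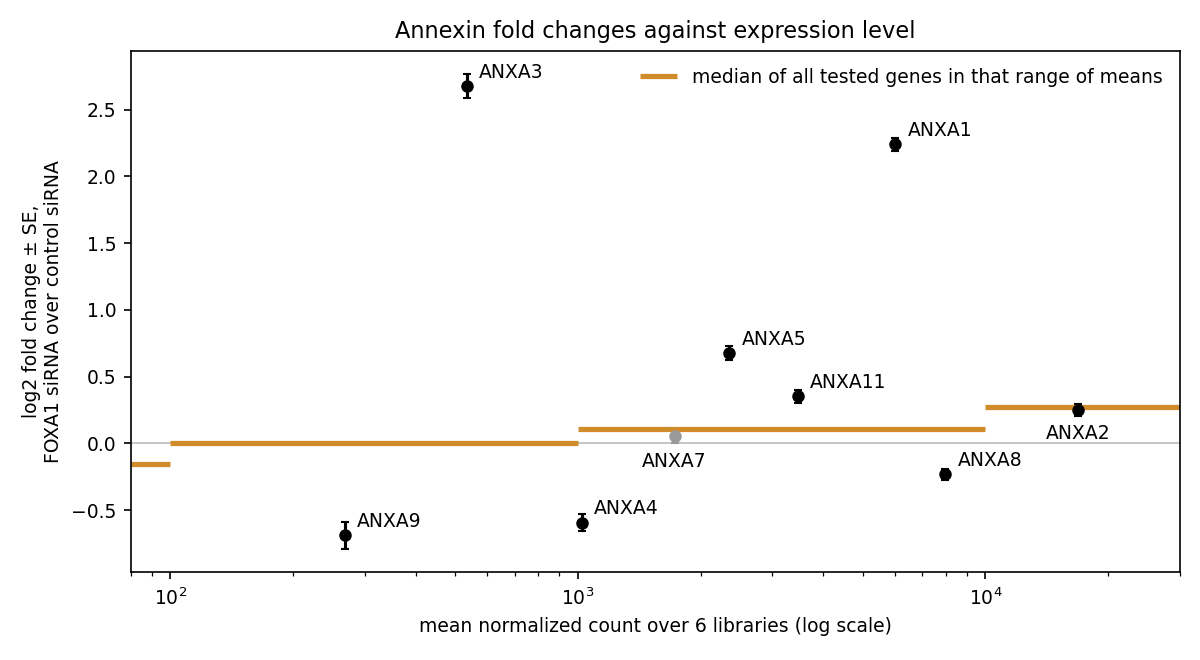
Log2 fold change with its SE (vertical axis, FOXA1 siRNA over control siRNA) against the mean normalized count over the 6 libraries (horizontal axis, log scale) for the 9 annexins with reads, in black where called and grey where not. Orange lines give the median of all tested genes in each range of means. ANXA2 sits on that line and ANXA7 close to it, while ANXA3 and ANXA1 stand more than 2 log2 units above.

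The annexins that fell were ANXA9, ANXA4 and ANXA8. ANXA9 (GRCh38 chromosome 1, 150982017 to 150995634, plus strand), a diverged member that has lost most calcium-binding residues of its core, had 200, 187 and 228 normalized counts in FOXA1 siRNA replicates 1, 2 and 3, against 340, 307 and 344 in control siRNA replicates 1, 2 and 3. The highest knockdown library stayed below the lowest control library. Its log2 fold change was -0.69 ± 0.10 (SE), and with a coefficient of variation of 10.0% its FOXA1 siRNA libraries were the most scattered of any member.

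ANXA4 (GRCh38 chromosome 2, 69644425 to 69827100, plus strand), an epithelial annexin that orders membranes and restrains chloride channels, had 823, 782 and 839 normalized counts in FOXA1 siRNA replicates 1, 2 and 3, against 1264, 1259 and 1167 in control siRNA replicates 1, 2 and 3. Every knockdown library was well below every control library. The ratio was 0.662 and the log2 fold change -0.59 ± 0.062 (SE). The start of ANXA4 overlaps AAK1, which rose (log2 fold change 0.29 ± 0.067), and the sources used here do not say whether reads were counted by strand.

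ANXA8 (GRCh38 chromosome 10, 47460162 to 47484158, minus strand), an annexin of late endosomes and keratinocytes, had 7393, 7383 and 7198 normalized counts in FOXA1 siRNA replicates 1, 2 and 3, against 8697, 8543 and 8565 in control siRNA replicates 1, 2 and 3. These were narrow groups with a small gap, a log2 fold change of -0.23 ± 0.043 (SE). ANXA8 has a near-identical copy, ANXA8L1, on the same chromosome. Of the 50-base windows of the principal ANXA8 transcript, 84.5% also stood in ANXA8L1 transcripts, so how the counting split reads between them bears on both values. ANXA8L1 had 5927 ± 130 and 6675 ± 54.5 normalized counts (SD, n = 3 each) with FOXA1 siRNA and control siRNA. It equalled 80.4% to 81.9% of ANXA8 in the FOXA1 siRNA libraries and 77.1% to 78.5% in the control siRNA libraries. Both copies together came to 13252 ± 234 and 15277 ± 118 (SD, n = 3 each), a ratio of 0.867, so the sum was lower as well.

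ANXA6 (GRCh38 chromosome 5, 151100712 to 151157882, minus strand), the member with a doubled core that works in endosomal and cholesterol traffic, was listed at 0 in all 6 libraries. In any single library, a level of up to 3 reads, or 2.28 to 3.56 normalized counts depending on the library, could have been missed. For a level shared by all 6 libraries, with 0 of 114573293 reads, the limit is lower. These limits cover counting error only. It shared no 50-base window of its principal transcript with another gene. Its tested protein-coding neighbours on the chromosome were read, TNIP1 at 1954 and 1774 normalized counts on average with FOXA1 siRNA and control siRNA and CCDC69 at 65.4 and 129. Among 19861 protein-coding genes of the annotation found in the table, 16.2% were at 0 in all 6 libraries.

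Other rows with annexin names were few and mostly low. ANXA10, an annexin of gastric epithelium, had 1.07, 6.83 and 4.74 normalized counts in FOXA1 siRNA replicates 1, 2 and 3, against 5.71, 14.1 and 10.5 in control siRNA replicates 1, 2 and 3, and ANXA13 had 0 reads in the FOXA1 siRNA libraries and at most 1 read in a control library. Neither passed the filter on low values. The processed pseudogene ANXA2P2 had 1106 ± 181 and 934 ± 72.7 normalized counts (SD, n = 3 each), which was 6.03% and 6.06% of ANXA2 on average, and 35.3% of the 50-base windows of the principal ANXA2 transcript stood in it. ANXA2P1 had 2.14, 14.4 and 13.1 normalized counts in FOXA1 siRNA replicates 1, 2 and 3, against 1.90, 2.02 and 3.14 in control siRNA replicates 1, 2 and 3, and ANXA2P3 was at 0. ANXA2R, which encodes a receptor described for ANXA2, had 60.1 ± 15.0 and 49.1 ± 11.7 normalized counts (SD, n = 3 each) with FOXA1 siRNA and control siRNA, and its antisense partner ANXA2R-AS1 had 90.3 ± 3.53 and 97.3 ± 21.1. Neither passed. ANXA2R-OT1, a transcript that overlaps both, had 225 ± 17.9 and 270.0 ± 21.6 and fell (log2 fold change -0.26 ± 0.10, limma adjusted p = 0.0335). Reads shared by these 3 overlapping rows cannot be told apart where strand was not used. Strand could set apart only ANXA2R-AS1, on the plus strand, since ANXA2R lies within the span of ANXA2R-OT1 on the minus strand. For the other members, ANXA8 apart, at most 0.318% of windows stood in transcripts of another gene.

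Levels of different genes were compared per kilobase of the longest annotated transcript, which need not be the one expressed. On that scale ANXA2 led with 5189 ± 272 per kilobase with FOXA1 siRNA and 4364 ± 174 with control siRNA (SD, n = 3 each). With FOXA1 siRNA the order ran on through ANXA1 (4495 ± 218), ANXA8 (3369 ± 50.4), ANXA5 (1644 ± 41.1), ANXA7 (718 ± 34.3), ANXA11 (558 ± 21.5), ANXA3 (315 ± 8.69), ANXA4 (184 ± 6.67) and ANXA9 (112 ± 11.3). With control siRNA, ANXA8 (3957 ± 38.4) came after ANXA2, then ANXA5 (1028 ± 14.8), ANXA1 (951 ± 33.5), ANXA7 (691 ± 10.5), ANXA11 (436 ± 3.39), ANXA4 (278 ± 12.3), ANXA9 (181 ± 11.3) and ANXA3 (49.1 ± 4.58). No pair of neighbours in either order overlapped between libraries. ANXA1 thus stood in place 2 with FOXA1 siRNA and in place 4 with control siRNA, and ANXA3 in places 7 and 9. The order depends on the length used. With the union of all exons of a gene, ANXA1 came before ANXA2 with FOXA1 siRNA (2177 ± 106 and 2075 ± 109 per kilobase, with overlapping libraries), ANXA7 came before ANXA1 with control siRNA, and ANXA9 before ANXA4 in both groups. By exon union, the control siRNA libraries of ANXA2 and ANXA8 overlapped, as did those of ANXA5 and ANXA7. With the principal coding transcript, ANXA11 (558 ± 21.5) and ANXA3 (557 ± 15.4) overlapped with FOXA1 siRNA. With control siRNA, ANXA4 then came before ANXA11 (439 ± 19.4 and 436 ± 3.39 per kilobase, with overlapping libraries). On this length ANXA2 stood at 10922 ± 573 per kilobase with FOXA1 siRNA and 9187 ± 367 with control siRNA.

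The summed level of the 10 members was 16583 ± 505 per kilobase with FOXA1 siRNA and 11936 ± 218 with control siRNA (SD, n = 3 each), a ratio of 1.39. ANXA8L1, which is not a member, is left out of the order and of this sum. It stood at 2726 ± 59.9 and 3070 ± 25.1 per kilobase. With it the ratio and the share of ANXA1 would be smaller. ANXA1 made up 27.1% ± 0.534 of that sum with FOXA1 siRNA and 7.97% ± 0.236 with control siRNA, and ANXA8 20.3% ± 0.898 and 33.2% ± 0.310. By principal transcript length ANXA1 made up 19.4% and 5.44%, so its share depends on the length used while the direction of the difference does not. Without regard to length, the 10 members took 0.237% ± 0.00495 of all normalized counts with FOXA1 siRNA and 0.189% ± 0.00279 with control siRNA.

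**Figure D3:**
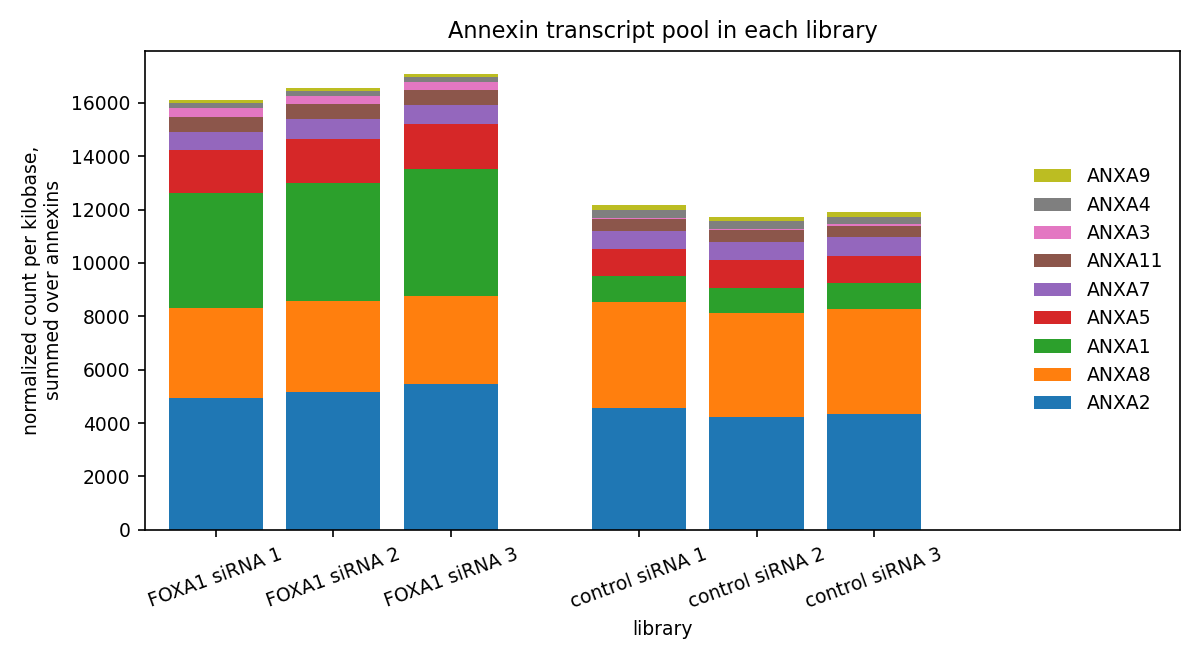
Normalized counts per kilobase of the longest transcript, stacked over the 9 members with reads (without ANXA8L1), for the 3 FOXA1 siRNA libraries (left) and the 3 control siRNA libraries (right). The ANXA1 layer makes up 27.1% of the stack on the left and 7.97% on the right, and the stacks on the left are 1.39 times as tall.

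The genes whose profiles lay closest to ANXA1 over the 6 libraries, by root mean square distance between log2 values centred on the control mean, were CPA4 (0.18), DTL (0.18) and GEMIN5 (0.18), among 11753 protein-coding genes with a mean of at least 50. CPA4, a carboxypeptidase, had 1164 ± 43.6 and 281 ± 39.2 normalized counts with FOXA1 siRNA and control siRNA (SD, n = 3 each). For ANXA3 they were APLN (0.30), the gene of the peptide hormone apelin, ANXA1 itself (0.32) and GEMIN5 (0.45). DTL is a substrate receptor of a ubiquitin ligase and GEMIN5 binds small nuclear RNAs. These distances describe 6 libraries that fall into 2 groups.

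On the chromosome, the tested protein-coding neighbours of ANXA3 were FRAS1, which did not pass (465 ± 16.1 and 498 ± 26.1 normalized counts with FOXA1 siRNA and control siRNA; limma adjusted p = 0.288), and BMP2K, a protein kinase gene, which rose (314 ± 6.74 and 206 ± 10.3, log2 fold change 0.61 ± 0.096, limma adjusted p = 4.88e-06). FRAS1 ends 7250 bases before the start of ANXA3, and BMP2K starts 165891 bases after its end. FRAS1 passed as lower under equal library totals (log2 fold change -0.20, limma adjusted p = 0.0352, the lowest of its alternatives, with 0.576 the highest). The nearest tested protein-coding genes of ANXA1 lie far off, ZFAND5 at 786522 bases and C9orf40 at 1776188 bases. ZFAND5 fell (1839 ± 23.9 and 2149 ± 105, log2 fold change -0.22 ± 0.053, limma adjusted p = 8.15e-04) and C9orf40 rose (205 ± 25.5 and 133 ± 6.29, log2 fold change 0.61 ± 0.12, limma adjusted p = 1.27e-04). Neither change came near the size of that of ANXA1. Of the 20 neighbours of all members, 8 rose, 6 fell and 6 did not pass, where 51.8% of all tested genes were called.

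Among the proteins that annexins bind, S100A10 and S100A11 rose and S100A6 fell. Of 8 tested genes of 13 binding partners and receptors, 3 rose, 2 fell and 3 did not pass (median log2 fold change 0.14), a share near the 51.8% called over all tested genes. S100A10, the partner of ANXA2, had 5356 ± 74.8 and 4113 ± 87.2 normalized counts with FOXA1 siRNA and control siRNA (SD, n = 3 each), a log2 fold change of 0.38 ± 0.046 (limma adjusted p = 6.45e-08). S100A11, the partner of ANXA1, had 7954 ± 499 and 5728 ± 171 (0.47 ± 0.049, limma adjusted p = 4.42e-09), and the calcium sensor sorcin, SRI, which binds ANXA7 and ANXA11, also rose (0.46 ± 0.068). S100A6, a further annexin partner, fell (3090 ± 87.3 and 4280 ± 261, log2 fold change -0.47 ± 0.051). PDCD6, the partner of ANXA7 and ANXA11, did not pass (1444 ± 72.3 and 1450 ± 113, log2 fold change -0.0039, limma adjusted p = 0.963, and 0.159 at the lowest and 0.972 at the highest of its alternatives), and its sign was the opposite without FOXA1 siRNA replicate 1 or control siRNA replicate 1. Of the receptors of ANXA1, FPR2 had 0 reads in all 6 libraries and FPR1 and FPR3 had 15 and 5 reads in all.

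**Figure D4:**
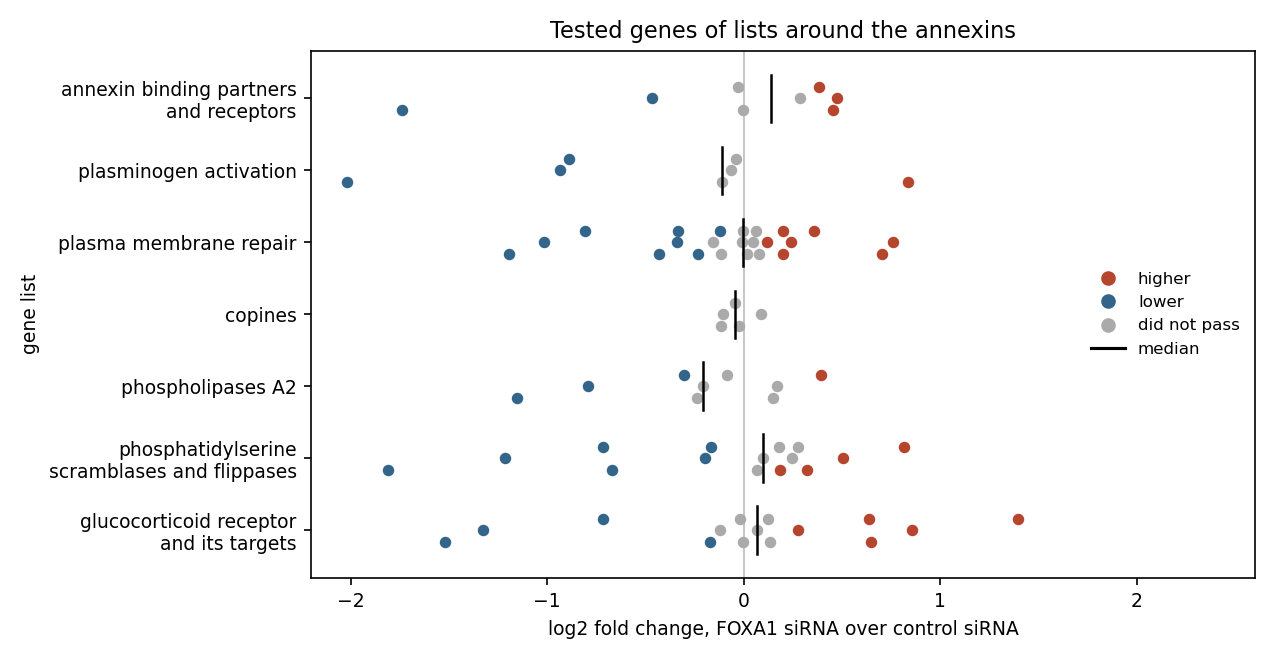
Log2 fold change (FOXA1 siRNA over control siRNA) of each tested gene of 7 lists around the annexins, with points coloured by whether the gene was called higher, lower or not at all, and a black bar for the list's median. All 5 tested copines are grey and near 0, and the medians lie between -0.21 and 0.14.

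Plasminogen activation, which ANXA2 and S100A10 promote at the cell surface, included falls of both activators. Of 7 tested genes of 9, 1 rose, 3 fell (PLAT, PLAU and SERPINF2) and 3 did not pass (median log2 fold change -0.11), again near the 51.8% called over all tested genes. PLAU, urokinase, had 3582 ± 101 and 6849 ± 196 normalized counts with FOXA1 siRNA and control siRNA (SD, n = 3 each; a log2 fold change of -0.93 ± 0.047, limma adjusted p = 1.71e-15). SERPINF2, the inhibitor of plasmin, fell further, to 184 ± 8.17 with FOXA1 siRNA against 746 ± 17.4 with control siRNA (-2.02 ± 0.083, limma adjusted p = 2.94e-17). SERPINE2, an inhibitor of plasminogen activators and thrombin, rose (0.83 ± 0.11). The summed level of the list was 6185 to 6328 with FOXA1 siRNA and 10735 to 11082 with control siRNA.

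Plasma membrane repair is a process in which annexins patch torn membrane. Of 23 tested genes of 24, 7 rose, 8 fell and 8 did not pass (median log2 fold change -0.0039), beside 26.8% higher and 25% lower over all tested genes. The caveolar genes CAV1 (15739 ± 714 and 9656 ± 101 normalized counts with FOXA1 siRNA and control siRNA, 0.70 ± 0.044) and CAVIN1 (0.76 ± 0.048) rose. VPS4B, an ATPase that takes apart the ESCRT filaments of repair and budding (-1.01 ± 0.067), and SMPD1, the lysosomal sphingomyelinase (-0.81 ± 0.11), fell. The split depends on the scaling, with 4 genes higher and 11 lower under equal library totals and 4 higher and 10 lower under quantile normalization.

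Of 9 tested phospholipase A2 genes of 20, whose enzymes release the fatty acids that ANXA1 is known to limit, 1 rose, 3 fell and 5 did not pass (median log2 fold change -0.21), where 51.8% of all tested genes were called. PLA2G12A rose (0.39 ± 0.11), and PLA2G6 (-0.79 ± 0.11) and PNPLA8 (-0.31 ± 0.087), both calcium-independent enzymes, fell. The count of falls was 5 under equal library totals and also without FOXA1 siRNA replicate 1, and the count of rises was 2 without FOXA1 siRNA replicate 3. PLA2G4A, the cytosolic enzyme that ANXA1 inhibits, had only 33.9 ± 8.74 and 31.5 ± 11.8 normalized counts (SD, n = 3 each) with FOXA1 siRNA and control siRNA and did not pass (limma adjusted p = 0.693).

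Scramblases and flippases set the exposure of phosphatidylserine, the lipid that ANXA5 binds. Of 15 tested genes of 21, 4 were higher, 6 lower and 5 did not pass (median log2 fold change 0.098), beside 26.8% higher and 25% lower over all tested genes. The P4-ATPase genes ATP11A (0.82 ± 0.072) and ATP10D (0.51 ± 0.077) rose, while ATP8B2 of the same flippase family (-1.22 ± 0.14) and TMEM30B (-0.72 ± 0.053), a subunit of flippases, fell. ANO6, the calcium-activated scramblase, rose slightly, with 1330 ± 4.17 and 1170 ± 35.8 normalized counts (SD, n = 3 each; a log2 fold change of 0.18 ± 0.057, limma adjusted p = 0.00797). It was named after its value was seen.

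Copines, another family that binds phospholipids with calcium but through C2 domains, showed no call by limma: 0 of 5 tested genes of 9 passed, with a median log2 fold change of -0.045 and a range of -0.11 to 0.089, where 51.8% of all tested genes were called. At an unadjusted p under 0.05, limma gave 1 fall (CPNE1), edgeR gave 1 at an adjusted p of 0.05 and DESeq2 gave 0. Equal library totals gave 3 falls.

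Among the glucocorticoid receptor and its targets, a set chosen because ANXA1 is known to be induced through this receptor, 5 of 15 tested genes rose, 4 fell and 6 did not pass out of 16 listed (median log2 fold change 0.068), a share near the 51.8% called over all tested genes. FKBP5, a co-chaperone of the receptor, rose to 615 ± 14.2 normalized counts with FOXA1 siRNA against 339 ± 17.1 with control siRNA (SD, n = 3 each; a log2 fold change of 0.86 ± 0.077, limma adjusted p = 3.46e-10), and so did the transcription factor gene CEBPD (0.65 ± 0.074). TSC22D3, also called GILZ (-0.71 ± 0.084), and DDIT4, an inhibitor of mTORC1 (-1.32 ± 0.045), fell. The receptor gene itself, NR3C1, fell slightly, with 3515.7 and 3954.5 normalized counts on average with FOXA1 siRNA and control siRNA (-0.17 ± 0.048, limma adjusted p = 0.00394). No glucocorticoid treatment is named in the labels.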

How the data were processed

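Libraries of 6 OSC19SSZR samples were made from total RNA with the NEBNext Ultra kit, per the labels' protocols. The submitters' processing notes list HISAT2, DESeq2, GRCh38 and GRCm38 with neither version nor role. The counting step and any use of strand are not given in the sources used here. Per the file headers, the authors deposited for each gene and sample a normalized signal (reads divided by a size factor). The authors' deposited log2 fold change, score and p-value were not used. Of 61862 lines, 3 were broken and were dropped. In each sample 100% of values were whole multiples of a step (within 0.01 read), so reads were recovered. The chi-square per gene between replicates was 2.64 to 5.64, so none was a duplicate.

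Groups came from sample titles. Normalized counts were set to log2 with a pseudocount of 1, which understates changes of low genes, and fitted with limma 3.58.1 (R 4.3.3; trend, robust). The 18460 genes with a mean of 10 or more were tested, with Benjamini-Hochberg adjustment and a threshold of 0.05. For FOXA1 an exact permutation p was computed as well. The fit was tested on simulated data. Alternatives were other pseudocounts, filters and normalizations, limma without trend and robust options, a replicate block, each sample left out, and edgeR 4.0.16 and DESeq2 1.42.0 on recovered reads. The members and lists were chosen with earlier results of these data known.

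Named genes were FOXA1, the members, other rows with annexin names, up to 2 rises and 2 falls per list (mean of 50 or more), S100A10, S100A11 and PDCD6, and the nearest profiles and neighbours of ANXA1 and ANXA3. Other list members are named for their role, S100A4 for its larger fall and KRT6A for its spread, all after their values were seen. Gene positions, transcript lengths and windows came from GENCODE release 29 (GRCh38) and promoters from RefSeq (GRCh38.p14), where 9 of 10 members had an entry.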

Additional observations from a re-analysis of the deposited data

How the results depend on the processing

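Over 17 alternatives to the fit, ANXA1 (log2 fold change 2.10 to 2.27), ANXA3 (2.58 to 2.75), ANXA5 (0.58 to 0.70), ANXA11 (0.24 to 0.38), ANXA4 (-0.69 to -0.56), ANXA8 (-0.41 to -0.22) and ANXA9 (-0.79 to -0.62) kept their direction and their call. ANXA2 lost its call under quantile normalization (0.036), and ANXA7 changed sign under equal library totals (-0.044) and quantile normalization (-0.017). Leaving out each sample in turn gave PDCD6 values of -0.049 to 0.058, above 0 without FOXA1 siRNA replicate 1 (0.035) and without control siRNA replicate 1 (0.058). Equal library totals put the median of all tested genes at -0.093, against 0.0039 as deposited. The cause of these shifts was not tested.

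Falls among binding partners were 1 with a mean of at least 50, since S100A4 is then not tested. In membrane repair, equal library totals gave 4 rises and 11 falls, and quantile normalization 4 rises and 10 falls. Falls among copines were 3 with equal library totals, and 1 with quantile normalization, recomputed median-of-ratios factors or edgeR. Among phospholipases A2, falls were 5 with equal library totals, and leaving out each sample in turn gave 3 to 5 falls and 1 to 2 rises. With FOXA1 siRNA the order of levels kept 6 of 10 places with exon union length, and 10 of 10 with principal transcript length, an alternative added after the data were seen. FRAS1 passed with equal library totals (-0.20).

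The correlation of deviations was 0.012 to 0.022 for equal replicate numbers and -0.028 to 0.0099 for unequal ones. All were small, but every equal pair lay above every unequal one, so these values do not decide whether the numbers pair the samples. In this balanced design a replicate block leaves every fold change as it was by construction (-2.79 for FOXA1) and alters only its error. With the replicate block ANXA2P2 passed as higher (0.23), and the members' calls were those without it. ANXA2P2 also passed without a filter on low values, without FOXA1 siRNA replicate 2 (0.32) and by edgeR and DESeq2. Identity between annexin proteins was not computed here.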
